A study of Mus musculus with 36 samples.

Results

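The genes Cd226, Tigit, Cd96 and Pvrig, which encode the nectin-binding receptors DNAM-1, TIGIT, CD96 and PVRIG, were followed across 36 libraries of mouse natural killer (NK) cells. They were taken by gene symbol from each of 4 tables of gene expression. All 4 genes were present in each table, out of 32940 genes in the table of sorted spleen subsets and 56923 in each of the other tables. Their identifiers are ENSMUSG00000034028 for Cd226, ENSMUSG00000071552 for Tigit, ENSMUSG00000022657 for Cd96 and ENSMUSG00000109713 for Pvrig. All 4 passed the filter on low values in the 3 tables that allowed a comparison.

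The receptors share ligands of the nectin family. DNAM-1 is an activating receptor of NK cells and T cells that binds CD155, the product of Pvr, and CD112, the product of Nectin2. TIGIT binds the same ligands with an inhibitory cytoplasmic tail and competes with DNAM-1 for CD155, CD96 also binds CD155, and PVRIG is an inhibitory receptor for CD112. The relative amount of these receptors on an NK cell is therefore commonly discussed as a balance between an activating receptor and inhibitory receptors for 1 set of ligands.

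Each of the 12 groups had 3 libraries, which the titles number as biological replicates, and every mean ± SD below is over n = 3 libraries. The tests set a difference against the spread between libraries within groups. That spread was estimated for each gene from all groups of a table together and moderated by that of other genes. The subset table held CD27-CD11b+ splenic NK cells, a mature stage, from WT mice (B2m+/+, C57BL/6) and B2m-/- mice, called KO below. Loss of B2m removes most MHC class I from the cell surface. Cells were sorted by 3 inhibitory receptors for MHC class I: TP cells carried all of Ly49C, Ly49I and NKG2A, SP cells carried Ly49I alone, and TN cells carried none of them. A second table held NK cells purified from WT splenocytes after 22 hours of ionomycin, which carries calcium into cells, or of vehicle, so other spleen cells were present during the treatment. Another table held splenic NK cells of WT mice after 48 hours in medium or on plate-bound antibodies to NKp46 with NKG2D or to NKp46 with DNAM-1. NKp46 and NKG2D are activating receptors of NK cells, and the second antibody pair binds the product of Cd226 itself. The last table held CD27-CD11b+ NK cells from tumours in WT mice, taken 10 days after subcutaneous injection of B2m-/- MC38 cells, a mouse colon carcinoma line. Its column names also carry the marks B2MKO and SP, with no meaning given in the titles, and groups here follow the titles. Age and sex of the mice are not given in the sources used here.

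Expression is given in TPM, a transcript abundance scaled to gene length and to the library's total, so levels of different genes in a library can be set side by side. Sequencing depth is unknown, and 12290 to 18096 genes were above 0 per library. All 11 NK cell markers fixed for the check of the labels were above 1 TPM on average in every group. In bulk samples, fewer cells of a type and less RNA per cell cannot be told apart. Each table carries 1 batch label, so levels were compared within a table only.

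The promoter windows of Tigit and Cd96 are shown because these genes, both on chromosome 16, lay at the ends of the range of change. The largest log2 difference of Tigit was 3.25 (ionomycin) and that of Cd96 was -0.46 (KO against WT TP), against -1.78 for Pvrig (ionomycin). Neither Cd96 nor Pvrig was called in any comparison of the main analysis. The sequences are from RefSeq on build GRCm38.p6 and run from 250 bases before to 50 bases after the annotated start, written 5′ to 3′ in the direction of the gene. Both genes lie on the minus strand, Tigit at chr16:43664135-43664434 and Cd96 at chr16:46120199-46120498. Capitals mark the NFAT core GGAAA and the RUNX motif TGTGGT, or their reverse complements.
Tigit: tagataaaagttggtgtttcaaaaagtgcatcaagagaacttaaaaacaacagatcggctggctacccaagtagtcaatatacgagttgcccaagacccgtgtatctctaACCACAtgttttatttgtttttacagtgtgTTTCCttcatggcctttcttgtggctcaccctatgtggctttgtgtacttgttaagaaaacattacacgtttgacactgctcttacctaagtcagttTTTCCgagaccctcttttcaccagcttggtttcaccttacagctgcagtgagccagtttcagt
Cd96: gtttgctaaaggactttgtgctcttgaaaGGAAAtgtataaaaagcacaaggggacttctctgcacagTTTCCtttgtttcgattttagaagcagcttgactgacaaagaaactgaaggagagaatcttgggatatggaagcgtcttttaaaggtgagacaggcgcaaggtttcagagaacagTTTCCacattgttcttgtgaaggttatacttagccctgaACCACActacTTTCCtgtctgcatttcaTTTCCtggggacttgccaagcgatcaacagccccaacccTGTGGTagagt
On both strands together, the Tigit window held 2 NFAT cores and 1 RUNX motif, and the Cd96 window held 5 and 2. The Pvrig window, at chr5:138341681-138341980 on the plus strand, held 2 and 1. GGAAA was present in 61.3% and TGTGGT in 16.8% of 32851 promoter windows of this length. Neither AP-1 (TGANTCA), the NR4A monomer site (AAAGGTCA), the T-box motif (TCACAC) nor FOXO (TGTTTAC) was found in these 3 windows, and they were present in 7.8%, 1.5%, 14.5% and 3.6% of all windows. Cd226 was left out of this scan, so nothing is given for its window. These matches describe letters only.

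Among the sorted subsets of WT mice, Cd226 was highest where Tigit was lowest. Cd96 and Pvrig also had their highest WT means in TP cells, at 94.91 and 65.61 TPM. Cd226 was at 132.88, 108.39 and 69.76 TPM in the WT TP libraries, while the SP libraries held 60.54, 59.66 and 41.35 TPM and the TN libraries 15.5, 21.82 and 19.56 TPM. The 3 groups did not overlap, and each further loss of sorted inhibitory receptors went with a lower level. Of all genes tested, 10.6% were apart between WT SP and TP libraries and 11.4% between WT TN and SP libraries. Tigit ran the other way, at 11.05, 5.83 and 7.12 TPM in WT TP, 25.38, 13.97 and 28.54 TPM in WT SP, and 24.55, 50.89 and 40.76 TPM in WT TN. All WT SP and TN libraries lay above all WT TP libraries, while SP and TN overlapped.

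Changes were tested with limma on log2(TPM + 1), a scale that understates the fold change of low genes, and a gene was called at a Benjamini-Hochberg adjusted p under 0.05 over all genes tested. Between WT TN and TP cells 2 of the 4 genes were called, against 1.31% of all genes tested. Cd226 fell by 2.36 on the log2 scale (SE 0.240, adjusted p 1.71e-05), a ratio of means of 5.47, and Tigit rose by 2.12 (SE 0.345, adjusted p 0.00269), or 4.84-fold. Pvrig had a log2 difference of -0.30 (SE 0.141, adjusted p 0.399) and Cd96 one of -0.29 (SE 0.120, adjusted p 0.312). The libraries of both groups were apart for 3 of the 4 genes, Cd226, Tigit and, by a narrow margin, Pvrig, against 14.6% of all genes tested. With these 6 libraries alone in the fit neither call held, with adjusted p of 0.0628 for Cd226 and 0.187 for Tigit at unchanged log2 differences. Over all genes tested, that fit called 21 in place of 157.

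SP cells, which keep Ly49I only, stood between TP and TN cells for both genes. Between WT SP and TP cells limma called 0 of the 4 genes and 0.191% of all genes. Of the 4, 2 had an unadjusted p under 0.05, as did 927 of 12018 genes tested. The log2 difference of SP from TP was -0.90 for Cd226 (95% interval -1.41 to -0.40, adjusted p 0.229) and 1.38 for Tigit (0.65 to 2.10, adjusted p 0.181). For these 2 genes the libraries were apart, as they were for 10.6% of genes. Between WT TN and SP cells Cd226 fell by 1.45 (SE 0.240, adjusted p 0.01), the 1 call among the 4 where 0.383% of all genes were called. Leaving out WT SP replicate 2 or WT TN replicate 1 ended that call (adjusted p 0.0559 and 0.0575), as did a fit of the 6 compared libraries alone (0.36). In that order these fits called 24, 29 and 2 genes over all, in place of 46. Tigit differed by 0.75 in that comparison (adjusted p 0.402).

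Markers of other lymphoid cells moved with the same subsets. The summed level of 4 type 1 innate lymphoid cell markers was 12.74 to 16.26 TPM for TP, 0.17 to 2.06 TPM for SP and 1.84 to 4.72 TPM for TN libraries of WT mice. The 8 B and plasma cell markers summed to 167.4 to 181.4 TPM in WT TP, 180.5 to 190.8 TPM in WT SP and 281.0 to 337.5 TPM in WT TN cells. The 11 NK cell markers summed to 22020 to 23340 TPM in WT TP, 21200 to 22740 TPM in WT SP and 19310 to 20100 TPM in WT TN cells. For these NK cell sums the TN libraries did not overlap the others. The 4 neutrophil markers were listed at 0 in all 9 WT libraries, and 8 T cell markers summed to at most 13.66 TPM in them. The part of all these markers in the Cd226 and Tigit differences was not tested.

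**Figure D1:**
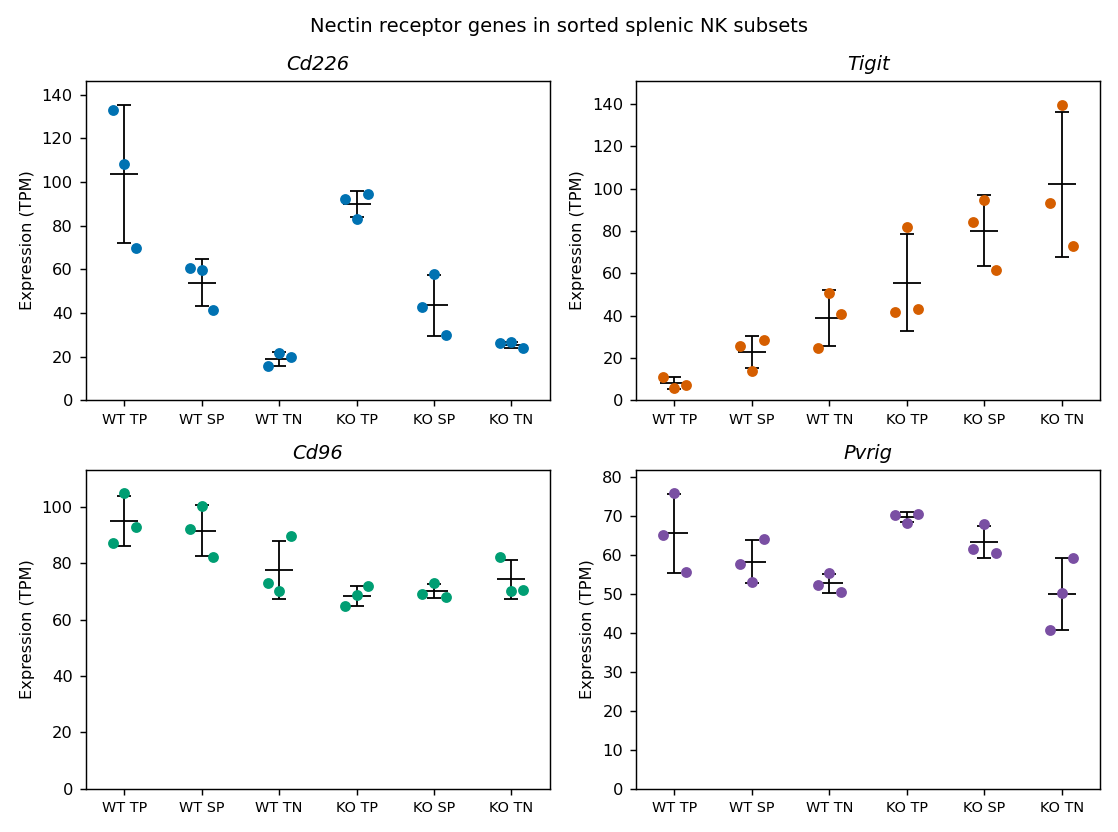
Expression in TPM (y axis) of the 4 genes in each of the 6 sorted groups of WT and KO spleen NK cells (x axis). Points are libraries, and bars give the mean and SD over 3 libraries. Cd226 steps down from TP to TN in both genotypes, Tigit steps up and is higher in KO cells, and Cd96 and Pvrig stay between 40.84 and 104.73 TPM.

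In mice without B2m the decline of Cd226 across the subsets was present as well. The KO TP libraries held 92.07, 83.17 and 94.34 TPM of Cd226, the KO SP libraries 42.61, 57.73 and 30.03 TPM and the KO TN libraries 25.99, 26.51 and 23.81 TPM, again without overlap between the 3 groups. It was the 1 called gene of the 4 between KO TN and TP cells, where 0.524% of all genes were called, and it fell by 1.78 (SE 0.240, adjusted p 0.000483). Between KO SP and TP cells limma called 0 of the 4 genes and 0.2% of all genes. An unadjusted p under 0.05 was found for 352 of 12018 genes tested and for 1 of the 4, Cd226 (log2 difference -1.08, adjusted p 0.118). Without KO SP replicate 2 this difference was called (adjusted p 0.0486). Libraries were apart for Cd226 and Pvrig, 2 of the 4 genes, against 10.9% of all genes, and the same held between KO TN and SP cells, also against 10.9%. Between KO TN and SP cells 0 of the 4 and 0.0416% of all genes were called by limma, with Cd226 (-0.70) and Pvrig (-0.35) at an unadjusted p under 0.05. That level was reached by 333 of 12018 genes tested.

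Tigit kept the same order of means in KO cells but with overlapping libraries. The TP libraries held 41.58, 81.99 and 42.88 TPM, the SP libraries 84.15, 94.64 and 61.59 TPM, and the TN libraries 93.41, 139.75 and 72.88 TPM. The log2 difference of KO TN from TP was 0.89 (95% interval 0.16 to 1.62, adjusted p 0.598), and that of KO SP from TP was 0.57 (-0.16 to 1.30). Pvrig was 0.49 lower in KO TN than in KO TP cells on the log2 scale (SE 0.141, adjusted p 0.236). Its libraries and those of Cd226 were apart in that comparison, 2 of 4 against 13.2% of all genes.

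Whether these subset differences depended on genotype was tested with an interaction term. For TN against TP, limma called 0 of the 4 genes and 0.025% of all genes. Of the 4, 2 had an unadjusted p under 0.05, as did 754 of 12018 genes tested. The Tigit difference was smaller in KO cells by 1.24 on the log2 scale (95% interval of the interaction -2.27 to -0.21, p 0.0215, adjusted p 0.718), and the Cd96 interaction was 0.40 (0.05 to 0.76, p 0.0286, adjusted p 0.733). For Cd226 it was 0.57 (-0.14 to 1.29, adjusted p 0.839) and for Pvrig -0.19 (-0.61 to 0.23, adjusted p 0.918). For SP against TP, 0 of the 4 genes and 0.0166% of all genes were called by limma. None of the 4 had an unadjusted p under 0.05, while 530 of 12018 genes tested did. The Tigit interaction was -0.80 (-1.83 to 0.23).

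The comparison of KO with WT cells within a subset asks what loss of B2m goes with at a fixed set of sorted receptors. Tigit was higher in KO cells, and the lowest KO library of any subset (41.58 TPM) lay above the highest WT TP or SP library (28.54 TPM). It rose by 2.62 in TP cells (SE 0.345, adjusted p 0.00025), a 6.94-fold ratio of means, where 1.59% of all genes were called. In SP cells it rose by 1.82 (SE 0.345, adjusted p 0.00932), 3.54-fold, where 1.35% of all genes were called. In TN cells the log2 difference was 1.38 (SE 0.345, adjusted p 0.0873), and 0 of the 4 genes and 0.716% of all genes were called by limma. Tigit alone of the 4 had an unadjusted p under 0.05 there, as did 1263 of 12018 genes tested. A fit of the compared libraries alone ended both Tigit calls (adjusted p 0.0649 for TP and 0.11 for SP). It called 43 genes in place of 191 for TP and 68 in place of 162 for SP. Leaving out WT SP replicate 2, KO SP replicate 1 or KO SP replicate 2 also ended the SP call, with adjusted p of 0.0664, 0.0556 and 0.0699. In that order these fits called 102, 99 and 91 genes over all.

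Cd226, in contrast, had log2 differences between genotypes of -0.16 in TP (95% interval -0.66 to 0.35), -0.33 in SP (-0.84 to 0.18) and 0.42 in TN cells (-0.09 to 0.92), none of them called. Its KO TN libraries (23.81 to 26.51 TPM) all lay above the WT TN libraries (15.5 to 21.82 TPM), which made it the 1 other gene besides Tigit that was apart in TN cells, where 13.7% of all genes were. The 3 lowest of the 18 libraries were WT TN and the next 3 were KO TN.

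Cd96 showed the reverse sign of Tigit between genotypes at a much smaller size. WT TP libraries held 87.19, 104.73 and 92.82 TPM and KO TP libraries 64.67, 68.63 and 71.96 TPM, without overlap. In SP cells it was at 92.22, 100.12 and 82.20 TPM in WT and 69.15, 73.03 and 68.07 TPM in KO, again without overlap. The log2 difference was -0.46 for TP (SE 0.120, adjusted p 0.0676) and -0.38 for SP cells (SE 0.120, adjusted p 0.163). The TP difference was called under median-of-ratios rescaling (adjusted p 0.0441) and quantile normalization (0.0489). In TN cells it was at 73.06, 70.29 and 89.46 TPM in WT and 82.25, 69.96 and 70.59 TPM in KO, with a log2 difference of -0.06 (95% interval -0.31 to 0.19). Counting Tigit and Cd96, 2 of the 4 genes were apart between genotypes among TP libraries and 2 of 4 among SP libraries, against 18.3% and 18.9% of all genes.

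Pvrig was called in no comparison of the sorted subsets, and all 18 libraries lay between 40.84 and 75.9 TPM. Its group means ran from 69.8 ± 1.30 TPM in KO TP to 50.1 ± 9.21 TPM in KO TN cells, and every neighbouring pair of groups in that order overlapped. RefSeq lists a pseudogene, Pvrig-ps, beside Pvrig, and how reads shared between them were assigned is not given in the sources used here, so its level is uncertain. The order of Cd96 group means, from 94.9 ± 8.96 TPM in WT TP down to 68.4 ± 3.65 TPM in KO TP cells, likewise had no neighbours apart. For Cd226 the order was WT TP, KO TP, WT SP, KO SP, KO TN and WT TN, with WT and KO overlapping in TP and in SP. For Tigit it was KO TN, KO SP, KO TP, WT TN, WT SP and WT TP, and only WT SP and WT TP did not overlap as neighbours.

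Markers of other blood cells were higher in KO TP libraries than in the rest of the subset table. The 8 B and plasma cell markers summed to 404.2 to 683.4 TPM in KO TP, with Ighm, Igkc and Igha highest and Ms4a1 at 0.15 to 1.29 TPM, against 167.4 to 337.5 TPM elsewhere. The 4 neutrophil markers summed to 38.01 to 168.3 TPM in KO TP and to at most 1.76 TPM elsewhere. Monocyte and macrophage markers summed to 32.76, 29.2 and 58.18 TPM in KO TP and to at most 25.68 TPM elsewhere. T cell markers summed to 14.71, 16.19 and 17.61 TPM in KO TP and 5.06, 5.42 and 4.82 TPM in WT TP, without overlap. Their sums reached 15.88 TPM in KO SP, within the KO TP range. Between the SP groups, type 1 innate lymphoid cell markers were at 1.28, 2.06 and 0.17 TPM for WT and 4.19, 4.71 and 4.29 TPM for KO, without overlap. B and plasma cell markers were at 180.51, 190.75 and 187.97 TPM for WT SP and 201.93, 226.89 and 196.81 TPM for KO SP, also without overlap, and neutrophil markers were at most 1.76 TPM in both. The part of these markers in the differences between genotypes was not tested.

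**Figure D2:**
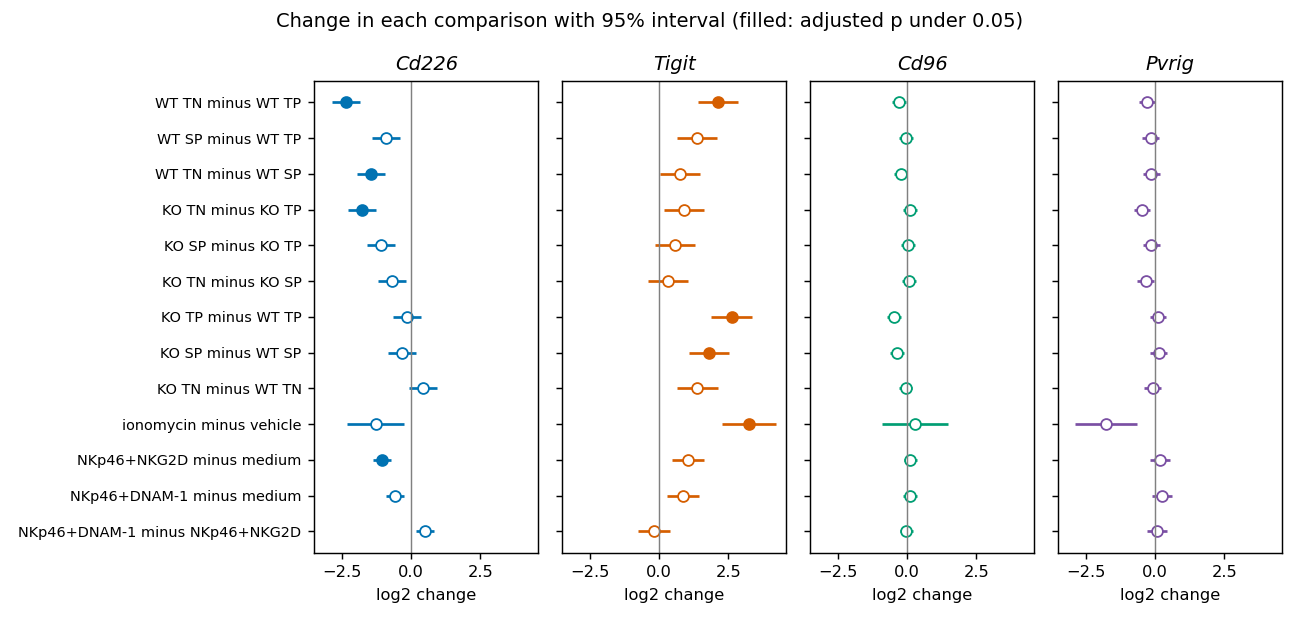
Log2 change of each gene (x axis) in the 13 comparisons of 2 groups (y axis), as estimated on log2(TPM + 1). Points are estimates, bars are 95% intervals, and filled points passed an adjusted p under 0.05. Filled points lie on the negative side for Cd226 and on the positive side for Tigit, and Cd96 and Pvrig have none.

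After 22 hours of ionomycin Tigit was the most abundant of the 4 genes by far, and Cd226 and Pvrig had lower means than with vehicle. Tigit was at 79.61, 88.85 and 277.30 TPM in vehicle libraries and reached 1155.93, 1178.15 and 1275.29 TPM under ionomycin. It rose by 3.25 (SE 0.425, adjusted p 0.00739), 8.10-fold, the 1 call among the 4 genes where 2.91% of all genes were called. Vehicle replicate 3 was high among its group, and without it the rise was 3.82 (adjusted p 0.006). Leaving out any 1 of the other 5 libraries ended the call, with adjusted p from 0.0626 to 0.149 and rises from 2.93 to 3.28, and so did a fit without a variance trend (0.0518). Fewer genes over all were called in those fits: 299 and 24 without vehicle replicates 1 and 2, against 418 in the main fit. The count was 6, 3 and 5 without ionomycin replicates 1, 2 and 3, and 172 without a trend.

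Pvrig was at 18.81, 32.99 and 55.39 TPM with vehicle and 5.55, 9.81 and 12.25 TPM with ionomycin, without overlap. Its log2 difference was -1.78 (95% interval -2.90 to -0.66, adjusted p 0.111), a ratio of means of 3.88. Tigit and Pvrig were the 2 genes of the 4 with libraries apart, against 20.1% of all genes. Cd226 was at 54.06, 58.48 and 34.60 TPM with vehicle and 37.47, 14.78 and 12.55 TPM with ionomycin, so 1 ionomycin library lay within the vehicle range. Its log2 difference was -1.28 (-2.30 to -0.25, adjusted p 0.218). Cd96 was at 13.39, 60.67 and 47.15 TPM with vehicle and 34.52, 45.23 and 45.87 TPM with ionomycin, a log2 difference of 0.28 (-0.90 to 1.46). Vehicle replicate 1 was below the other 5 libraries, and without it the difference was -0.36.

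Other markers moved with ionomycin and with single libraries of this table. The 11 NK cell markers summed to 18773.67, 16032.02 and 8243.74 TPM with vehicle and to 8159.88, 6706.48 and 5989.67 TPM with ionomycin. Ncr1, which encodes NKp46, was at 800.34, 1072.6 and 512.06 TPM in vehicle libraries and 140.82, 135.19 and 94.0 TPM in ionomycin libraries. Vehicle replicate 3, the one with high Tigit, also had 59.12 TPM of Il7r, against 9.19 and 11.37 TPM in the other vehicle libraries, and 293.3 TPM of neutrophil markers, which were 119.03 TPM in ionomycin replicate 3 and 2.19 TPM or less in the other 4 libraries. The T cell markers summed to 4.41 to 11.73 TPM with vehicle and 15.15 to 25.68 TPM with ionomycin, without overlap. Cd4, Cd8a and Cd8b1 were listed at 0 in all 6 libraries and Cd3e at 1.84 TPM or less. The rest of these sums came from Cd3d, Cd3g, Cd5 and Foxp3, the other genes of that list. The part of these other cells in the receptor differences was not tested beyond leaving out each library.

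After 48 hours on plate-bound antibodies Cd226 was lower than in medium with each antibody pair, with and without an antibody to DNAM-1. It was at 102.28, 106.07 and 91.09 TPM in medium, 46.64, 51.75 and 43.96 TPM with NKp46+NKG2D and 71.47, 73.22 and 56.55 TPM with NKp46+DNAM-1. The 3 groups did not overlap. Under NKp46+NKG2D, Cd226 fell by 1.06 (SE 0.145, adjusted p 0.0115), a ratio of means of 2.10, the 1 call among the 4 where 0.431% of all genes were called. This call ended without NKp46+NKG2D replicate 1 (adjusted p 0.0768) or replicate 3 (0.0737) and with only the compared groups in the fit (0.0524). In that order these fits called 28, 32 and 26 genes over all, in place of 59. With NKp46+DNAM-1, limma called 0 of the 4 genes and 0.782% of all genes. At an unadjusted p under 0.05 were 2 of the 4 and 2458 of 13689 genes tested. The log2 difference of Cd226 from medium was -0.57 (95% interval -0.89 to -0.25, adjusted p 0.106). The column names carry the same numbers across the 3 conditions, with no statement that a number marks 1 mouse, and with that number as a replicate block this difference was called (adjusted p 0.037).

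Set against each other, the antibody pairs differed in Cd226 by 0.49 on the log2 scale, higher with NKp46+DNAM-1 (0.16 to 0.81, p 0.00737, adjusted p 1). Limma called 0 of the 4 genes and 0.0146% of all genes in that comparison. Cd226 alone of the 4 had an unadjusted p under 0.05, as did 167 of 13689 genes tested. Its libraries were apart, as they were for 7.42% of all genes.

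Tigit was at 117.44, 244.92 and 146.75 TPM in medium, 400.23, 367.62 and 254.05 TPM with NKp46+NKG2D and 309.39, 332.71 and 246.59 TPM with NKp46+DNAM-1. All 6 antibody libraries lay above all 3 medium libraries, at the closest with 246.59 against 244.92 TPM. The log2 difference from medium was 1.04 with NKp46+NKG2D (95% interval 0.46 to 1.62, adjusted p 0.134) and 0.86 with NKp46+DNAM-1 (0.28 to 1.44, adjusted p 0.139), so neither was called. Without medium replicate 2, the highest of its group, the difference with NKp46+NKG2D was called (1.34, adjusted p 0.0445). Both comparisons share the medium libraries. For Cd226 and Tigit, 2 of the 4 genes, the libraries were apart from medium with each antibody pair, against 17.3% of all genes with NKp46+NKG2D and 21.1% with NKp46+DNAM-1.

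Cd96 and Pvrig were called with neither antibody pair, and each overlapped its medium libraries. Cd96 was at 136.07, 150.68 and 158.88 TPM in medium, 170.93, 163.43 and 149.14 TPM with NKp46+NKG2D and 156.40, 172.88 and 146.94 TPM with NKp46+DNAM-1. Its log2 differences from medium were 0.12 (-0.13 to 0.36) and 0.10 (-0.15 to 0.34). Pvrig was at 59.15, 53.40 and 46.06 TPM in medium, 57.71, 65.81 and 57.20 TPM with NKp46+NKG2D and 53.15, 62.09 and 73.45 TPM with NKp46+DNAM-1, with differences of 0.19 (-0.17 to 0.55) and 0.24 (-0.12 to 0.60).

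In this table the column name and the title of a sample give different groups for 6 of 9 samples, and the column names were followed here. Grouped by the titles, the Cd226 difference of NKp46+NKG2D from medium was 0.08 (adjusted p 0.997) in place of -1.06, so every direction given for the antibodies rests on the column names. Markers of other lymphoid cells were higher in medium. The type 1 innate lymphoid cell markers summed to 48.21 to 62.3 TPM in medium and 10.39 to 21.28 TPM with antibodies. The 8 T cell markers summed to 33.36 to 76.4 TPM in medium and 20.68 to 39.65 TPM with antibodies, with Cd4 and Cd8b1 listed at 0 in all 9 libraries. Cd3e was at 23.88, 4.54 and 31.39 TPM in medium and at most 8.72 TPM with antibodies. Their part in the Cd226 and Tigit values was not tested.

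**Figure D3:**
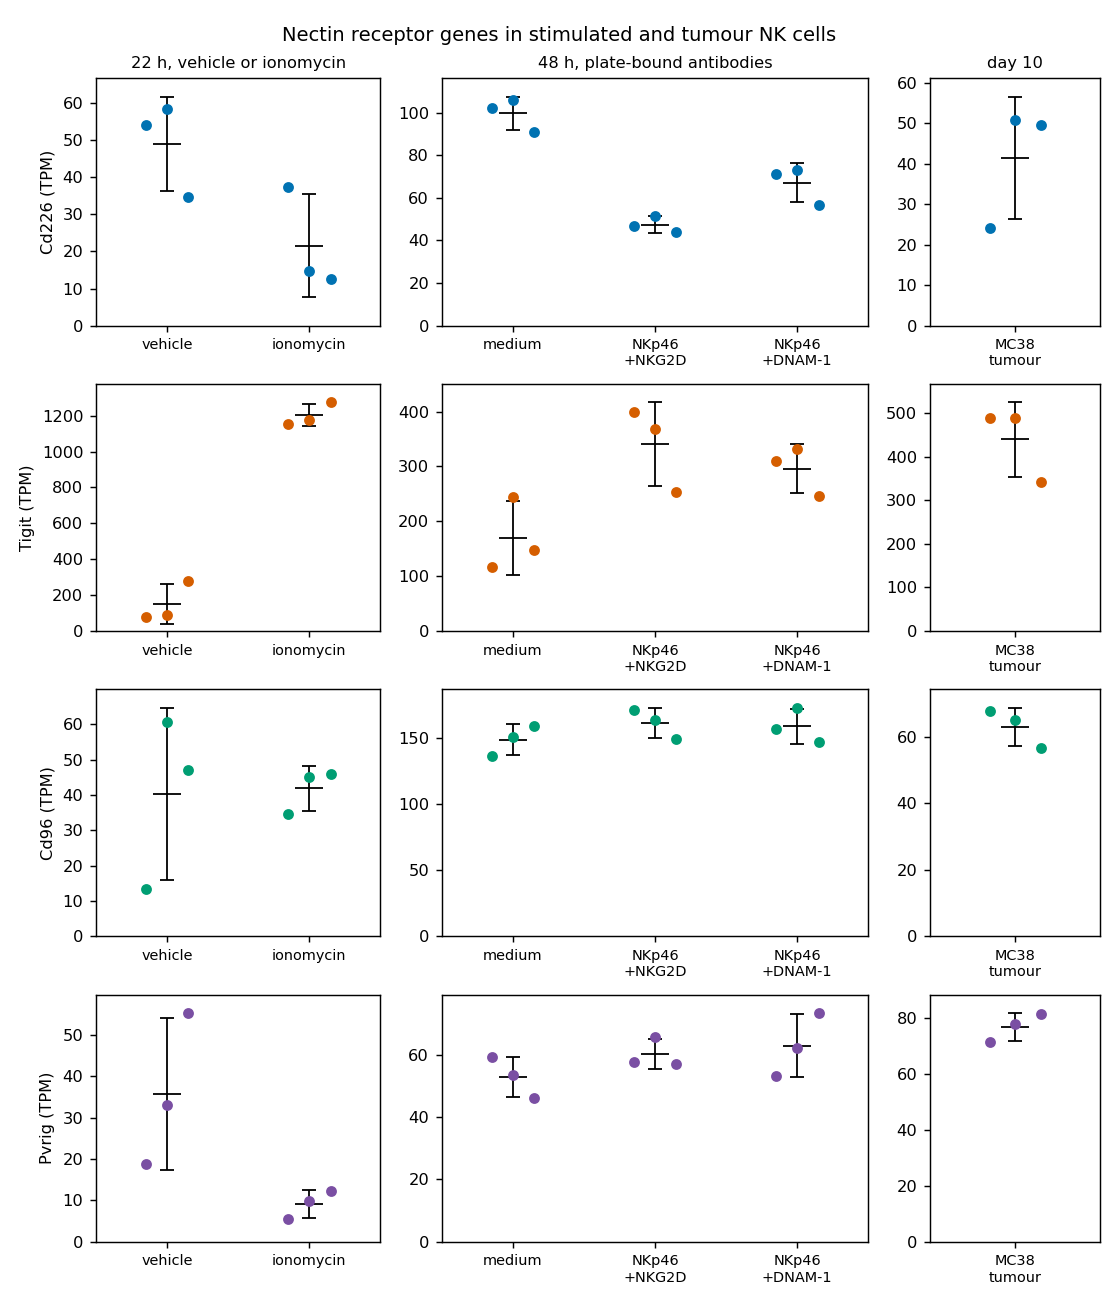
Expression in TPM (y axes, each from 0) of the 4 genes in NK cells after 22 hours with vehicle or ionomycin, after 48 hours in medium or on antibody pairs, and from day 10 MC38 tumours (x axis). Points are libraries, bars are mean and SD over 3 libraries, and panels of different tables are not to be compared as tests. Tigit lies at 1155.93 TPM or more in all 3 ionomycin libraries, and Cd226 is lower with both antibody pairs than in medium.

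NK cells from the tumours had no comparison group in their table, and their levels are a description. Tigit was the highest of the 4 genes there, at 488.70, 489.65 and 341.29 TPM, and Pvrig was next at 71.46, 77.76 and 81.36 TPM. Cd96 was at 67.67, 64.93 and 56.66 TPM, below Pvrig in each library. Cd226 was the lowest in every library, at 24.12, 50.92 and 49.54 TPM. Neutrophil markers were listed at 0 in all 3 tumour libraries. The T cell markers summed to 8.58, 5.34 and 13.97 TPM. Of that list, Cd3e, Cd8a and Cd8b1 were at 0, and Cd3d and Cd3g alone reached 1 TPM in a library. The monocyte and macrophage markers summed to 62.62, 40.3 and 39.84 TPM, and the B and plasma cell markers to 168.97, 134.43 and 115.84 TPM. The type 1 innate lymphoid cell markers summed to 12.91, 50.93 and 30.84 TPM. The part of these markers in the tumour levels was not tested. Ncr1 was at 181.72, 168.1 and 320.79 TPM.

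The ratio of Tigit to Cd226 within a library, both per length, sets the inhibitory gene Tigit against the activating gene Cd226. It leaves out Cd96 and Pvrig. The mean ratio in WT mice was 0.0797 ± 0.0243 for TP, 0.448 ± 0.229 for SP and 2.00 ± 0.381 for TN cells. In KO mice the mean was 0.631 ± 0.308 for TP, 1.89 ± 0.219 for SP and 3.98 ± 1.15 for TN cells. Tigit was thus below Cd226 in all WT TP, WT SP and KO TP libraries and above it in all WT TN, KO SP and KO TN libraries. The ratio was 1.47 to 8.01 with vehicle and 30.9 to 102 with ionomycin. It was 1.15 to 2.31 in medium, 4.33 to 4.54 with NKp46+DNAM-1 and 5.78 to 8.58 with NKp46+NKG2D, without overlap between the 3 groups. In the tumour libraries it was 6.89 to 20.3. These ratios restate the levels above and carry no test of their own.

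**Figure D4:**
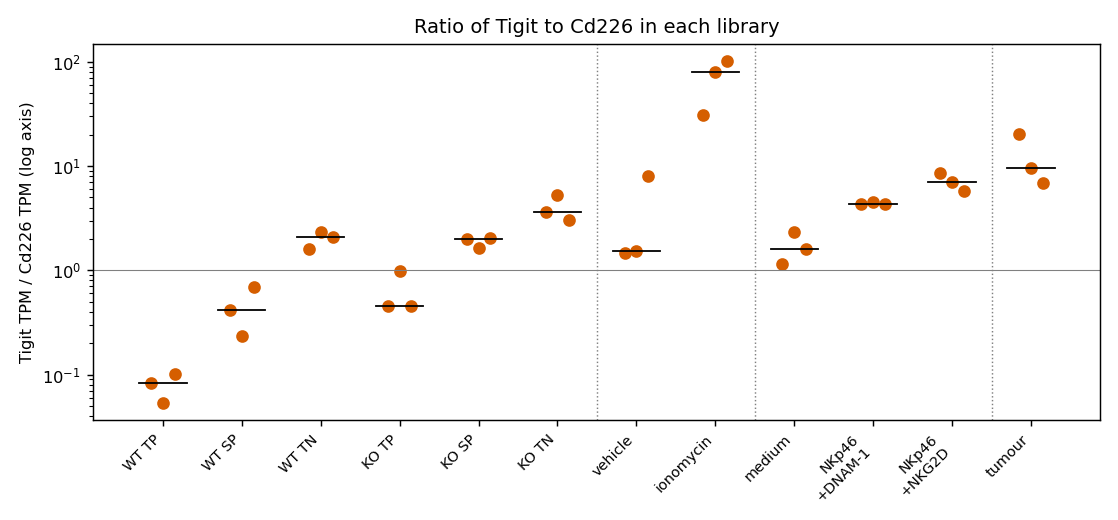
Ratio of Tigit TPM to Cd226 TPM in each library (y axis, log scale) by group (x axis). Points are libraries, short lines are group medians, the horizontal line marks a ratio of 1 and dotted lines separate the tables. The ratio is below 0.11 in WT TP cells of the subset table. In the ionomycin table it is 1.47 to 8.01 with vehicle and above 30 with ionomycin. Ratios are to be compared within a table only.

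The share of each gene in the summed TPM of the 4 shows how the mix of receptor transcripts differed. In the subset table Tigit made up 3.0% of that sum on average in WT TP cells, 20.2% in WT TN and 39.8% in KO TN, and Cd226 made up 37.5%, 10.1% and 10.2%. The sum itself was 272 ± 40.6 TPM for WT TP, 188 ± 19.7 for WT TN and 252 ± 31.0 for KO TN cells. In the ionomycin table Tigit made up 50.6% with vehicle and 94.3% with ionomycin, and Cd226 21.7% and 1.7%, of sums of 274 ± 127 TPM and 1276 ± 61.4 TPM. In the antibody table the Tigit share was 35.2% in medium, 50.5% with NKp46+DNAM-1 and 55.4% with NKp46+NKG2D. In tumour libraries, which had no comparison group, it was 70.4%.

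Across the 18 subset libraries, log2 levels of Cd226 and Tigit had a Pearson r of -0.47, Tigit and Cd96 one of -0.77, and Cd226 and Pvrig one of 0.71. These libraries share their groups, so the values describe the group pattern and carry no test. In the 9 antibody libraries the same pairs had r of -0.66, 0.74 and -0.46. The sign for Tigit with Cd96 and for Cd226 with Pvrig thus differed between the tables.

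The genes whose pattern over the 18 subset libraries was most like that of each receptor were read off by Pearson correlation. For Cd226 they were Id2 (r = 0.921), which encodes an inhibitor of helix-loop-helix factors, Gpc1 (0.921), which encodes a cell surface proteoglycan, and Cx3cr1 (0.909), the fractalkine receptor gene. Cx3cr1 had means of 124.5 TPM in WT TP and 26.02 TPM in WT TN cells. In the 9 antibody libraries the r with Cd226 was -0.33 for Id2, 0.76 for Gpc1 and -0.53 for Cx3cr1. For Tigit they were Bcl2 (0.943), which encodes an inhibitor of apoptosis, Pik3r1 (0.892), a regulatory subunit gene of phosphoinositide 3-kinase, and Itpkb (0.89), which encodes an inositol trisphosphate kinase. Bcl2 had means of 58.42 TPM in WT TP and 128.3 TPM in KO TN cells, the ends of the Tigit order too. The r with Tigit in the antibody libraries was -0.38 for Bcl2, 0.72 for Pik3r1 and -0.03 for Itpkb.

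For Cd96 the closest genes were Zfp442 (0.852), Elk3 (0.829), an ETS factor gene, and H2-K1 (0.82), an MHC class I heavy chain gene, with r of 0.1, 0.37 and -0.3 in the antibody libraries. For Pvrig they were Septin5 (0.85), Foxk1 (0.791) and Zer1 (0.788), with r of -0.04, -0.55 and -0.25. Of these 12 genes, Gpc1 and Pik3r1 had an r above 0.7 with their receptor in the antibody libraries too. All 12 were picked for a high r in the subset table. The share of all genes with such an r in the antibody libraries was not computed.

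Ligand genes and the wider nectin family were mostly near 0 in these cells. Of 10 family genes, Pvr, Cadm3 and Crtam passed the filter in the subset table, and Nectin2 was listed at 0 in 17 of 18 libraries. Pvr was at 2.79 to 18.62 TPM in the subset table, 31.89 to 63.38 TPM in the ionomycin table, 3.05 to 14.44 TPM in the antibody table and 24.52 to 34.88 TPM in tumour libraries. None of the 3 tested genes was called by limma in a subset comparison, where 0.0166% to 1.59% of all genes were. At an unadjusted p under 0.05 were 0 to 2 of them, and 333 to 1504 of 12018 genes. With ionomycin none of 4 was called, where 2.91% of all genes were, and 0 of 4 and 2169 of 14372 genes were at that level. Crtam, which encodes a receptor for the nectin-like molecule CADM1, was the 1 call of 3 tested with NKp46+DNAM-1, where 0.782% of all genes were called. It was at 99.12, 102.26 and 108.39 TPM in medium and 173.82, 186.45 and 166.93 TPM with that pair, and rose by 0.76 (SE 0.132, adjusted p 0.0341). With NKp46+NKG2D it was at 152.01, 110.06 and 142.24 TPM, a log2 difference from medium of 0.37 (adjusted p 0.24).

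A list of 19 genes for signalling proteins tied to DNAM-1 or TIGIT was tested in full. Between WT TN and TP cells 3 of the 19 were called, against 1.31% of all genes: 2 rose and 1 fell, with a list median log2 difference of 0.02 against -0.01 over all genes. Ptpn6, which encodes the phosphatase SHP-1, was at 163.84, 155.28 and 132.85 TPM in WT TP and 357.36, 297.54 and 266.26 TPM in WT TN cells, and rose by 1.02 (SE 0.160, adjusted p 0.00209). Fyn, a Src family kinase gene, rose by 0.27 (adjusted p 0.0347). Itgb2, which encodes the beta chain of LFA-1, the integrin that associates with DNAM-1, fell by 0.38 (adjusted p 0.00404). Ptpn6 was the 1 call of 19 between WT TN and SP cells, where 0.383% of all genes were called, a rise of 1.11 (adjusted p 0.00356).

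Between genotypes Ptpn6 and Itgb2 were again the called genes of the list, 1 in each direction in both TP and SP comparisons, where 1.59% and 1.35% of all genes were called. Ptpn6 was at 353 ± 24.5 TPM in KO TP cells against 151 ± 16.0 in WT TP and rose by 1.23 (adjusted p 0.000239), and it rose by 1.15 in SP cells (adjusted p 0.000616). Itgb2 fell by 0.34 in TP (adjusted p 0.00786) and by 0.36 in SP cells (adjusted p 0.0066). The list medians were -0.00 and -0.03, against 0.04 and 0.03 over all genes. In TN cells no gene of the list and 0.716% of all genes were called by limma. Of the list, 2 genes had an unadjusted p under 0.05, against 1263 of 12018 genes tested. The interaction of Ptpn6 for TN against TP was -1.20 (SE 0.227, adjusted p 0.0808), the genotypes differing by 0.03 in TN cells.

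With ionomycin 3 of the 19 were called, all of them lower, where 2.91% of all genes were called in either direction, with a list median of -0.24 against -0.00 over all genes. Itgb2 fell by 1.14 (adjusted p 0.0387), Vav1, which encodes a guanine nucleotide exchange factor, fell by 1.17 (adjusted p 0.0272), and Plcg2, a phospholipase gene, fell by 1.75 (adjusted p 0.0215). The alternative fits were followed for the receptor genes only, so whether these 3 calls hold in them was not tested. Without ionomycin replicate 1, 2 or 3, those fits called 6, 3 and 5 genes over all, against 418 in the main fit. Ptpn6, at 91.3 ± 24.1 TPM with vehicle and 81.2 ± 42.0 TPM with ionomycin, was not called there, where Tigit was. With the antibody pairs none of the 19 was called by limma, where 0.431% (NKp46+NKG2D) and 0.782% (NKp46+DNAM-1) of all genes were. At an unadjusted p under 0.05 were 1 of the 19 and 2069 of 13689 genes with NKp46+NKG2D. With NKp46+DNAM-1 it was 3 of the 19 and 2458 of 13689 genes. None of the 19 was called in the 3 comparisons among KO subsets, TN against TP, SP against TP and TN against SP. In that order 0.524%, 0.2% and 0.0416% of all genes were called. At an unadjusted p under 0.05 were 2, 0 and 0 of the list, and 773, 352 and 333 of 12018 genes tested. Between WT SP and TP cells none was called either, where 0.191% of all genes were. At an unadjusted p under 0.05 were 1 of the list and 927 of 12018 genes tested.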

How the data were processed

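mRNA libraries were made from total RNA with integrity scores above the stated limit, per the labels' protocols. The authors deposited 4 tables in TPM, which the submitters' processing notes tie to STAR, RSEM and build GRCm39, with no versions. TPM hold no read depth, so precision rests on 3 libraries per group, and an exact permutation test of 3 against 3 cannot go below 0.1. In the antibody table groups follow the column names.

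Genes averaging 1 TPM or more across a table's libraries were fitted with limma 3.58.1 (R 4.3.3) on log2(TPM + 1), with 1 mean per group, an intensity trend and two-sided tests. Benjamini-Hochberg adjustment ran over all genes within each of 15 comparisons. The fit was tested on simulated data. The 4 genes and the lists were chosen with earlier results of these data known. Named beyond the 4 were called genes of the nectin and signalling lists and, per receptor, the 3 most correlated genes, without predicted genes. Alternatives changed the pseudocount (0.1), filter, scaling, trend, groups fitted, block, titles or 1 library. They were followed for the 4 receptor genes and not for the genes of the lists. Promoters came from RefSeq on GRCm38.p6, and the coordinates belong to that build only. Tables were read with pandas 2.3.3 and drawn with matplotlib 3.10.9.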

Additional observations from a re-analysis of the deposited data

How the results depend on the processing

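The number of receptor genes called moved in these settings. With only the compared groups fitted it was 0 for WT TN against TP (2 in the main analysis), and 0 for WT TN against SP, KO against WT TP, KO against WT SP and NKp46+NKG2D against medium (1 each). Calls over all genes fell in the same fits, from 157 to 21, 46 to 2, 191 to 43, 162 to 68 and 59 to 26 in that order. With the filter also set on the compared libraries, an alternative chosen after seeing the data, WT TN against TP gave 1 and WT TN against SP gave 0. Over all genes these fits called 43 and 6. KO against WT TP gave 2 under median-of-ratios rescaling and 2 under quantile normalization. Ionomycin gave 0 without a variance trend, with 172 genes called over all in place of 418. Replicate numbers recur across groups, the labels do not state whether a number marks 1 mouse, and same-number deviations correlated at 0.01 (subset), 0.062 (ionomycin) and 0.064 (antibody table) on average. With a replicate block NKp46+DNAM-1 against medium gave 1 call in place of 0 (Cd226, -0.57, adjusted p 0.037) and 528 called genes in place of 107. It changed no other receptor call, and 239 genes in place of 59 were called for NKp46+NKG2D. No block was fitted between genotypes. Groups from the titles gave 0 calls for NKp46+NKG2D against medium, and turned Cd226 there to 0.078, Tigit and Cd96 with NKp46+DNAM-1 to -0.220 and -0.021, and Cd226 and Pvrig between the antibody pairs to -0.272 and -0.056.

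Leaving out 1 library gave 0 to 1 calls for WT TN against SP, KO SP against TP, KO against WT SP and ionomycin, and 0 to 2 for NKp46+NKG2D against medium. Signs turned only for differences that were not called: Cd96 in WT SP against TP (-0.119 to 0.022), KO SP against TP (-0.005 to 0.071), KO against WT TN (-0.133 to 0.047), ionomycin (-0.357 to 0.692) and between antibody pairs (-0.085 to 0.031), Pvrig in KO against WT TP (-0.013 to 0.208) and TN (-0.216 to 0.047), the SP interaction (-0.087 to 0.134) and between antibody pairs (-0.064 to 0.165), and Cd226 in KO against WT TP (-0.416 to 0.044) and the SP interaction (-0.398 to 0.085). Cd226 in WT and KO TN against TP, Tigit in WT TN against TP and Tigit in KO against WT TP were called in all 6 such fits each. Unknown depth and 3 libraries per group limit what small differences of Cd96 and Pvrig can show.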
